A study of Mus musculus with 4 samples.

Results

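The Frizzled receptor genes are the 10 mouse genes Fzd1 to Fzd10, chosen by name among the 21938 protein-coding genes of the annotation. Chromatin accessibility at these genes was read from ATAC-seq, in which Tn5 transposase inserts adapters into open chromatin. There were 2 control (Ctrl) and 2 conditional knockout (cKO) libraries, each made from nuclei of hippocampi dissected at postnatal day 0. The cKO mice have the genotype Kdm2bEmx1-delta-CxxC, in which Emx1-Cre, active in the dorsal telencephalon, removes a Kdm2b exon and with it the CxxC zinc finger of KDM2B. Ctrl mice were Kdm2bfl/+ or Kdm2bfl/fl, and the labels do not say which library came from which. All 4 libraries therefore carry floxed Kdm2b, and cells outside the Emx1 lineage keep the exon in cKO hippocampi. Peak names in the Ctrl lists carry the tags Kf-+ and Kf-f, which the labels do not explain, so the 2 Ctrl libraries may differ in genotype. The labels also name neural progenitor cells as the source, while the titles and the protocol name hippocampus. They do not state whether replicates came from separate animals, so the spread between replicates may be technical.

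Frizzled proteins are membrane-spanning receptors of secreted Wnt proteins. With the co-receptors Lrp5 and Lrp6 they signal through Dishevelled to stabilise β-catenin, and with other partners they orient cells within a sheet (planar cell polarity). Wnt ligands from the cortical hem are needed for the hippocampus to form, which makes the receptors of interest in this tissue. KDM2B recruits a Polycomb complex to CpG islands, the CpG-rich stretches at which many promoters lie, and its CxxC zinc finger is the part that binds them.

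The promoters of the Frizzled genes are CpG-rich, but differ in the motifs they hold. In the 1 kb centred on the annotated transcription start site (TSS), GC content ran from 57.7% at Fzd8 to 70.8% at Fzd5, against a median of 54.8% over protein-coding genes. The observed over expected CpG ratio ran from 0.603 at Fzd8 to 1.03 at Fzd3, against a median of 0.553. All 10 therefore fell in the class with a GC content of at least 50% and a ratio of at least 0.6, which holds 44.4% of protein-coding genes. RefSeq promoter windows of 300 bases (250 before the RefSeq start to 50 after, GRCm38.p6) were at hand for Fzd1, Fzd4, Fzd5, Fzd7, Fzd9 and Fzd10. 5 are printed 5′ to 3′ along the gene, since they span the deepest promoter peaks (Fzd1 and Fzd7), a promoter with a peak in 3 lists (Fzd4), one with a peak in 2 lists (Fzd5) and the gene with no promoter peak (Fzd10). Capitals mark 3 motifs, the GC box, the CCAAT box and the TATA box. The GC box was searched as GGGCGG, and the CCAAT box by the letters of its name. The TATA box was searched as TATAAA. Each motif was sought on both strands, and matches may run into each other.
Fzd1, chr5:4758167-4758466, minus strand: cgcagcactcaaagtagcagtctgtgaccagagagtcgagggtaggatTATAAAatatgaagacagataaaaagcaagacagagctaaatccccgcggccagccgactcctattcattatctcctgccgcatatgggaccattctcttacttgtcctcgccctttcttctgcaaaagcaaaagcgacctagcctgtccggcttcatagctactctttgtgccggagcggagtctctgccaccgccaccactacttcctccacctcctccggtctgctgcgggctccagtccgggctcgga
Fzd7, chr1:59481897-59482196, plus strand: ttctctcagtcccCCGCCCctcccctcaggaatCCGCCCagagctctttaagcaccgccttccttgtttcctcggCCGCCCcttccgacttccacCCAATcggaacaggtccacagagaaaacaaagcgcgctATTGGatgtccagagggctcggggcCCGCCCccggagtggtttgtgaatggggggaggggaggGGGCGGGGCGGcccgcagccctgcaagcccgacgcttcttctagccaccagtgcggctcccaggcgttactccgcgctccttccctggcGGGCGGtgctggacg
Fzd4, chr7:89404116-89404415, plus strand: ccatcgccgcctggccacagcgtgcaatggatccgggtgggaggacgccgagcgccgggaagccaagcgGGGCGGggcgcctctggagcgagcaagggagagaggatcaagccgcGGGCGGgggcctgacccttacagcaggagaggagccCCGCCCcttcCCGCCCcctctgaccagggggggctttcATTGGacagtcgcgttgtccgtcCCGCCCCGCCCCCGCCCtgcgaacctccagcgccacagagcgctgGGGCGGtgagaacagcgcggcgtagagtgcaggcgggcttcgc
Fzd5, chr1:64737701-64738000, minus strand: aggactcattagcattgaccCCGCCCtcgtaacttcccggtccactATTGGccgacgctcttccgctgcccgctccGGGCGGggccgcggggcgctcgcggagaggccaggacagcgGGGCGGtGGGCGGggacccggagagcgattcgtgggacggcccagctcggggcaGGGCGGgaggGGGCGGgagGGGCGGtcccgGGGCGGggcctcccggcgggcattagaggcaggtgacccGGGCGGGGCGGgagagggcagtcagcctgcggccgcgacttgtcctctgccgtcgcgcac
Fzd10, chr5:128600856-128601155, plus strand: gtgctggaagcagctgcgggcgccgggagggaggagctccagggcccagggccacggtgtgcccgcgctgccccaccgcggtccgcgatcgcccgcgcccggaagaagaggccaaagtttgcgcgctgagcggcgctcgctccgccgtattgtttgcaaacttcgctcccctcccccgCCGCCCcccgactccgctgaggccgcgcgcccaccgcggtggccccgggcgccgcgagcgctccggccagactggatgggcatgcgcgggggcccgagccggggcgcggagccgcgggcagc

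The GC box was present in 35.7% of the 32851 windows of the RefSeq table, the CCAAT box in 37.4% and the TATA box in 13.6%. Shares over CpG-rich windows alone were not counted, although all Frizzled promoters are CpG-rich and the GC box itself holds a CpG. The Fzd5 window held 10 GC boxes and 1 CCAAT box. The Fzd4 window held 8 and 1, and the Fzd7 window 7 and 2. The windows of Fzd9 and Fzd10 held 1 GC box each and no CCAAT box. The Fzd1 window was the exception among the 6, with no GC box and 1 TATA box. It also held the only match, on either strand, to CTTTGA, which 16.0% of all windows hold. These letters are a form of the core that TCF/LEF factors bind. Other forms of that core were not searched, so windows without CTTTGA may still hold it. CpG dinucleotides numbered 16 in the Fzd1 window, 24 in Fzd7, 32 in Fzd4, 38 in Fzd5, 45 in Fzd10 and 53 in Fzd9, where the median window has 7. A match describes the letters only.

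The deposited lists hold 46389 peaks in Ctrl rep1, 7037 in Ctrl rep2, 21404 in cKO rep1 and 44535 in cKO rep2. Ctrl rep2 stands apart. It had the most fragments by the estimate from the lists (29.6 M, with M for mega, against 14.6 to 19.4 M) and the fewest peaks, and 60.6% of its peaks were repeat-masked, against 5.37 to 14.7% in the other lists. Comparisons of promoter strength between the groups are therefore also given without it. Markers of the dorsal telencephalon and hippocampus had a promoter peak for 8, 0, 5 and 9 of 10 genes, in the order Ctrl rep1, Ctrl rep2, cKO rep1 and cKO rep2, and radial glia markers for 5, 0, 4 and 6 of 6. Microglia markers had none (0 of 4) in any list. Choroid plexus markers had 2, 0, 2 and 2 of 3, and oligodendrocyte lineage markers 2, 0, 0 and 1 of 4. Strength was higher in both cKO libraries than in both Ctrl libraries, by the percentile defined with the promoter values, for 3 of the 9 telencephalon and hippocampus markers with a peak in any list (Emx2, Lhx2 and Tbr1), 3 of 6 radial glia markers (Sox2, Nes and Vim) and 2 of 2 choroid plexus markers (Ttr and Foxj1), where 20.5% of all genes with a peak were. It was so for none of the interneuron (0 of 3), oligodendrocyte lineage (0 of 2) and blood vessel (0 of 1) markers with a peak. The same markers were higher in both cKO libraries than in Ctrl rep1 alone, where 23.8% of genes were. Prox1 (telencephalon and hippocampus), Dlx1 (interneurons) and Olig1 (oligodendrocyte lineage) were lower in both cKO libraries than in Ctrl rep1, where 36.6% of genes were. Ttr stood in Ctrl rep1 (49.8) below the lowest percentile that a peak can have in cKO rep1, so for that library its higher value followed from list length once a peak was called. Nes had no peak in Ctrl rep1, so any peak in a cKO list stood higher. The promoter of Nes was called in both cKO lists and in neither Ctrl list, as for 0.123% of genes. The part of these cell types in the Frizzled values was not tested. Markers of interneurons from outside the Emx1 lineage had 3, 0, 1 and 2 of 6, and blood vessel markers 1, 0, 1 and 0 of 5. No peak lay over the removed exon of Kdm2b in any list, so these lists do not check the deletion.

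Of the 10 Frizzled genes, 9 had a promoter peak in Ctrl rep1, none in Ctrl rep2, 6 in cKO rep1 and 8 in cKO rep2. A promoter peak is one whose summit lies within 2 kb of an annotated TSS. The shares over all protein-coding genes were 58%, 8.27%, 40.3% and 55.9% in the same order. Over CpG-rich promoters alone (9740 genes) they were 90.8%, 15.4%, 68.8% and 88.7%. The difference between group means was 2.5 genes (cKO minus Ctrl), and −2 genes without Ctrl rep2. Fzd1, Fzd2, Fzd3, Fzd4, Fzd7 and Fzd8 shared 1 pattern, a peak in all lists but Ctrl rep2, which 31.8% of protein-coding genes have. Fzd5 and Fzd9 had one in Ctrl rep1 and cKO rep2 only, a pattern of 14% of genes. Fzd6 had one in Ctrl rep1 only (3.88% of genes), and Fzd10 had none in any list (39.8% of genes). No Frizzled gene had a promoter peak in all 4 lists, in both cKO lists alone or in both Ctrl lists alone, patterns that 8.02%, 0.123% and 0.00912% of genes have.

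Lists called one by one share no scale, so the strength of a promoter is given as a percentile. Protein-coding genes are ranked in each library by the −log10 p-value of their strongest promoter peak, and the percentile is the share of them that rank lower, or 0 without a peak. A gene with a peak cannot fall below 42.0 in Ctrl rep1, 91.7 in Ctrl rep2, 59.7 in cKO rep1 and 44.1 in cKO rep2. The mean percentile of the 10 genes was 58.8, 0, 47.4 and 55.1 in these libraries, and that of all protein-coding genes was 41.2, 7.93, 32.1 and 40.2. Depth itself is given as the fragments at the summit, and as scaled depth, these fragments over the genome-wide mean of the library. It is a depth at a single base and does not depend on gene length. The genome mean was 1.62 fragments in Ctrl rep1, 3.46 in Ctrl rep2, 2.07 in cKO rep1 and 1.81 in cKO rep2. In tissue, a promoter open in fewer cells and one less open in each cell cannot be told apart.

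**Figure D1:**
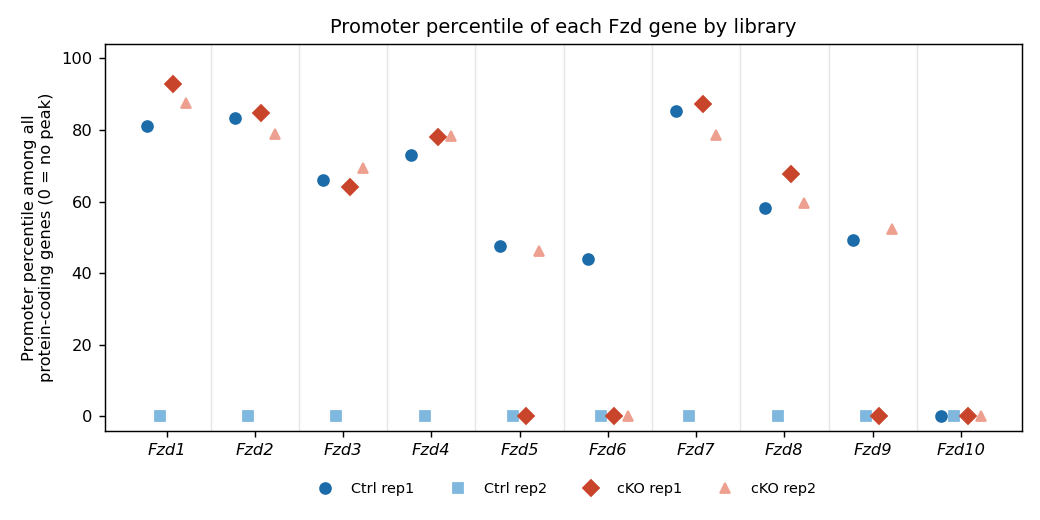
Promoter percentile (vertical axis, 0 to 100) of each Fzd gene in each library, 1 point per library. 6 genes have points from 58.1 to 92.8 in 3 libraries, all points of Ctrl rep2 lie at 0, and Fzd10 lies at 0 throughout.

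Fzd1, Fzd2 and Fzd7 are close relatives that can stand in for each other in β-catenin signalling, and Fzd7 is known as a receptor of stem and progenitor cells. Each has a single exon in the annotation. They had the 3 deepest Frizzled promoters in each of the 3 lists with Frizzled promoter peaks. In Ctrl rep1 the order of scaled depth was Fzd7, Fzd1, Fzd2, Fzd4, Fzd8, Fzd3, Fzd9, Fzd5 and Fzd6, and the 95% Poisson intervals of neighbours in this order overlapped. In both cKO lists Fzd1 stood first by scaled depth, but its interval overlapped those of Fzd7, Fzd2 and Fzd4, which also overlapped each other.

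Fzd1 (ENSMUSG00000044674, chr5:4753839-4758035, minus strand) had a percentile of 81.1 in Ctrl rep1, 0 in Ctrl rep2, 92.8 in cKO rep1 and 87.6 in cKO rep2. Both cKO libraries lay above both Ctrl libraries. The mean was 90.2 ± 3.63 (SD, n = 2) in cKO and 40.6 ± 57.4 in Ctrl, and the exact permutation test gave its smallest possible p of 0.333 (two-sided, Benjamini-Hochberg adjusted p = 1). The peak rested on 65 fragments in Ctrl rep1, 42 in cKO rep1 and 75 in cKO rep2. Its scaled depth was 40.1 (95% Poisson interval 30.9 to 51.1), 20.2 (14.6 to 27.4) and 41.5 (32.7 to 52.0), so the depth in cKO rep1 was the lowest although its percentile was the highest. The summit lay 99, 72 and 56 bases upstream of the GENCODE TSS, which is 82 to 125 bases inside the gene by the RefSeq start, and so just downstream of the window printed above. Weaker peaks lay in the coding exon, 1702 bases inside the gene in Ctrl rep1 (26 fragments) and 1015 bases inside it in cKO rep1 (17 fragments).

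Fzd2 (ENSMUSG00000050288, chr11:102604396-102608058, plus strand) had percentiles of 83.4, 0, 84.8 and 78.9, in the same order of libraries. The cKO values lie on either side of Ctrl rep1. Its promoter peak held 61, 29 and 51 fragments in Ctrl rep1, cKO rep1 and cKO rep2, for scaled depths of 37.6, 14.0 and 28.2. The summits were 129, 134 and 161 bases upstream of the TSS.

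Fzd7 (ENSMUSG00000041075, chr1:59482424-59486955, plus strand) had percentiles of 85.2, 0, 87.1 and 78.6, again with the cKO values on either side of Ctrl rep1. The 73 fragments at its summit in Ctrl rep1 were the most at any Frizzled promoter there, with 32 in cKO rep1 and 52 in cKO rep2. Scaled depth was 45.0 (35.3 to 56.6), 15.4 (10.6 to 21.8) and 28.8 (21.5 to 37.7). The summits lay 399, 356 and 399 bases upstream of the GENCODE TSS. All 3 fall in the printed RefSeq window, 122, 79 and 122 bases before its start. Among the 6 windows, that of Fzd7 alone held the summits of 3 lists.

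Fzd5 and Fzd8 form another pair of relatives, and both take part in forebrain and eye development. Fzd5 (ENSMUSG00000045005, chr1:64730558-64737751, minus strand) had percentiles of 47.6 in Ctrl rep1, 0 in Ctrl rep2 and cKO rep1, and 46.1 in cKO rep2. These are close to the lowest values a peak can have in these lists, and the peaks held 17 and 14 fragments. The scaled depth was 10.5 (6.10 to 16.8) and 7.75 (4.24 to 13.0). The summit lay 178 bases inside the gene in one list and 210 bases upstream of it in the other, so the lists share the promoter and not the summit. The noncoding gene Gm38058 starts at the same promoter.

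Fzd8 (ENSMUSG00000036904, on chromosome 18) had percentiles of 58.1, 0, 67.5 and 59.7, so both cKO values exceeded both Ctrl values (exact permutation p = 0.333, adjusted p = 1). The value in Ctrl rep1 is below 59.7, the lowest that a peak can have in cKO rep1, so for cKO rep1 this followed from list length once a peak was called. It carries 2 open stretches, one at the TSS and one in its single coding exon. At the TSS the summits lay 35 bases upstream in Ctrl rep1 and cKO rep2 and 30 bases downstream in cKO rep1. In the coding exon they lay 1999, 2077 and 1971 bases inside the gene in Ctrl rep1, cKO rep1 and cKO rep2. The 2 kb limit of a promoter falls between these positions. Its percentile thus rests on the exonic peak in Ctrl rep1 (38 fragments) and cKO rep2 (36 fragments), and on the TSS peak in cKO rep1 (21 fragments). When any overlap with the promoter counted, cKO rep1 stood at 74.7. With promoters of 1 kb, which leave the exonic peak out, the percentiles were 59.1, 0, 68.5 and 56.7, and cKO rep2 no longer exceeded Ctrl rep1.

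Fzd4, Fzd9 and Fzd10 are also relatives. Fzd4 is the receptor of Norrin in blood vessels of the eye and brain, Fzd9 is strongly tied to the hippocampus by its expression, and Fzd10 marks parts of the dorsal neural tube. Fzd4 (ENSMUSG00000049791, chr7:89404355-89413134, plus strand) had percentiles of 73.0, 0, 78.0 and 78.3. Both cKO libraries lay above both Ctrl libraries, with means of 78.2 ± 0.213 (SD, n = 2) in cKO and 36.5 ± 51.6 in Ctrl (exact permutation p = 0.333, adjusted p = 1). Its peak held 44, 25 and 50 fragments in Ctrl rep1, cKO rep1 and cKO rep2. Scaled depth was 27.1 (19.7 to 36.4), 12.1 (7.80 to 17.8) and 27.7 (20.5 to 36.5). The summits were 73 bases upstream, 81 bases downstream and 11 bases upstream of the TSS, and the first and the last fall in the printed window with its GC boxes. All 3 summits also lie within 2 kb of the 5′ end of Tmem135, so this promoter is shared with another gene.

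Fzd9 (ENSMUSG00000049551, chr5:135248938-135251230, minus strand) had percentiles of 49.3, 0, 0 and 52.3. The 2 peaks held 18 and 21 fragments, with scaled depths of 11.1 and 11.6, and their summits lay 39 and 6 bases inside the gene. Fzd10 (ENSMUSG00000081683, chr5:128600844-128604093, plus strand) had a percentile of 0 in all 4 libraries. Its 1 kb around the TSS holds 95 CpG dinucleotides, as many as at Fzd1, with a ratio of 0.812. By CpG content, the Frizzled gene without a peak lay within the range of the others.

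Fzd3 and Fzd6 act mainly in planar cell polarity and axon guidance, and are the Frizzled genes with 7 exons. Fzd3 (ENSMUSG00000007989, chr14:65192449-65262463, minus strand) had percentiles of 66.1, 0, 64.1 and 69.4, with the cKO values on either side of Ctrl rep1. Its peak held 37, 13 and 35 fragments in Ctrl rep1, cKO rep1 and cKO rep2, for scaled depths of 22.8 (16.1 to 31.4), 6.27 (3.34 to 10.7) and 19.4 (13.5 to 26.9). The summits lay 21, 43 and 46 bases upstream of the TSS. Fzd6 (ENSMUSG00000022297, chr15:39006034-39038188, plus strand) had a percentile of 44.0 in Ctrl rep1 and 0 elsewhere. That peak held 10 fragments at a summit 35 bases inside the gene, for a scaled depth of 6.16 (2.96 to 11.3), and the noncoding gene Gm26704 shares this promoter.

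**Figure D2:**
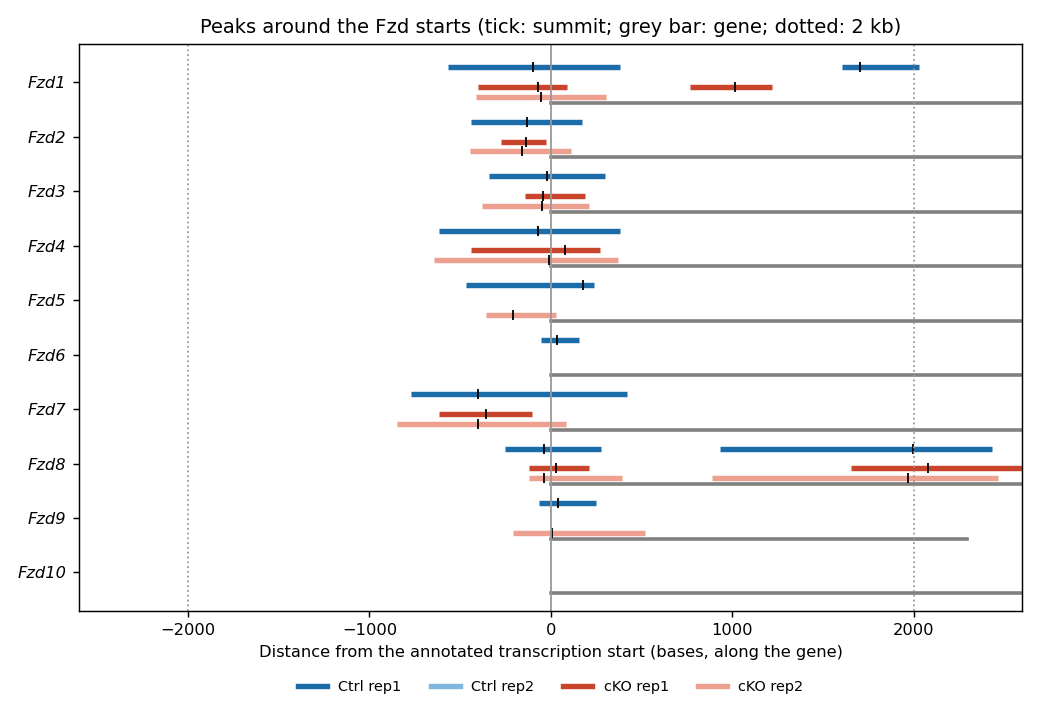
Peaks within 2.6 kb of each Fzd start (horizontal axis, bases along the gene), coloured by library, with a tick at each summit and the 2 kb promoter limit dotted. Summits gather within 399 bases of the start, apart from the peaks inside Fzd1 and the exonic stretch of Fzd8 at the limit.

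Gene by gene, 3 of the 9 Frizzled genes with a promoter peak anywhere (Fzd1, Fzd4 and Fzd8) had both cKO percentiles above both Ctrl percentiles. Among 13196 genes that code for protein and have such a peak, 20.5% did. In lists cut to equal size, where the strongest 7037 peaks of each list were kept, this held for Fzd1 alone, since Fzd4 then had a promoter peak in cKO rep2 only and Fzd8 in no list. The share of all genes for which it held in the cut lists was not counted, so that result has no background. None of the 9 could have both below, since all stood at 0 in Ctrl rep2, while 2.8% of all genes had both below. When genes without a peak were given mid-ranks, Fzd6 had both below. Its values outside Ctrl rep1 were then those of every gene without a peak. The permutation test reached its smallest value of 0.333, in either direction, for 23.3% of genes, and no difference can pass a threshold of 0.05 with 2 libraries against 2. The median difference was 34.6 percentile points over the 9 genes and 29.5 over all genes, and 7 of 9 were above 0 against 72.9% of genes. Ctrl rep2 sets these values. Without it the median was −1.57 points over the 9 genes and −1.70 over all genes, and 4 of 9 were above 0 against 38.9%. The same 3 genes had both cKO percentiles above Ctrl rep1 alone (23.8% of genes did). Fzd5, Fzd6 and Fzd9 were 0 in at least one cKO list, and only Fzd5 and Fzd6 had both cKO values below Ctrl rep1 (36.6% of genes did).

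Scaled depth can be set against Ctrl rep1, the one Ctrl library with Frizzled promoter peaks. Over the 8734 genes that had a promoter peak in Ctrl rep1 and both cKO lists, the median ratio of cKO rep1 to Ctrl rep1 was 0.370 (interquartile range 0.318 to 0.437), and that of cKO rep2 to Ctrl rep1 was 0.840 (0.738 to 0.949). Both ratios share their denominator. At Fzd1 they were 0.505 (exact 95% counting interval 0.334 to 0.756) and 1.04 (0.733 to 1.47), and 87.6% and 86.9% of genes had a lower ratio. At Fzd4 they were 0.444 (0.261 to 0.742) and 1.02 (0.667 to 1.57), and 76.8% and 85.04% of genes had a lower ratio. Fzd7 gave the lowest ratio for cKO rep2, 0.640 (0.439 to 0.925), with 8.43% of genes lower. Fzd3 gave the lowest for cKO rep1, 0.275 (0.134 to 0.529), with 9.97% of genes lower. Fzd5 and Fzd9 were set against the same median for cKO rep2, though they lie outside the 8734 genes for want of a peak in cKO rep1. For all 6 Frizzled genes measured in cKO rep1 and all 8 in cKO rep2, the counting interval held the median ratio of that library. A departure of a single Frizzled promoter from the shift of its library was thus not detectable at this depth. These intervals and the Poisson intervals cover counting error only.

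**Figure D3:**
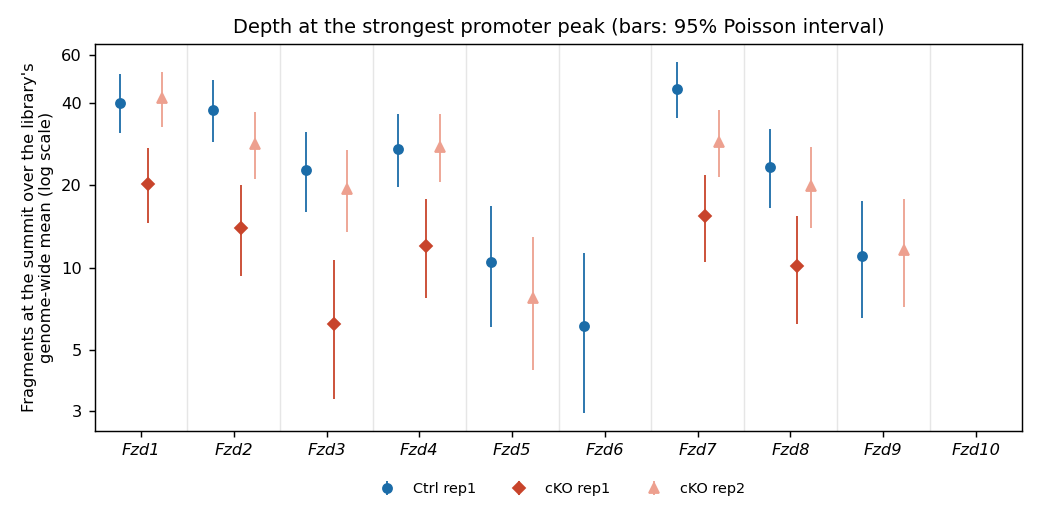
Scaled depth at the strongest promoter peak of each Fzd gene (vertical log axis), with bars for the 95% Poisson interval of the fragments; libraries without a peak have no point. Points of cKO rep1 lie below those of the other 2 libraries at all 6 genes where it has a peak.

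Which Frizzled promoters had a peak in a list followed the depth in Ctrl rep1. Fzd6, at 6.16, is in the lowest bin (under 10), where 10.4% of all genes had a promoter peak in cKO rep1 and 61.2% in cKO rep2, and it had neither. Fzd5 and Fzd9 lie in the bin from 10 to 20, where 49.2% and 96.0% did, and both had one in cKO rep2 alone. Fzd3, Fzd4 and Fzd8 lie between 20 and 30 (85.7% and 99.7%), Fzd2 between 30 and 40 (96.9% and 99.9%), and Fzd1 and Fzd7 between 40 and 50 (99.2% and 99.9%), and these 6 had a peak in both. In Ctrl rep2, 21.7% of genes had a peak in the bin of Fzd1 and Fzd7, and 9.26% or fewer in the bins of the other Frizzled genes. A share of 61.4% was reached only at a depth of 50 or more, where no Frizzled gene lies. The lowest scaled depth of any promoter peak was 3.46 in Ctrl rep2 and 4.32 to 4.43 in the other lists. A missing peak therefore shows only that a promoter did not pass the threshold of that list.

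**Figure D4:**
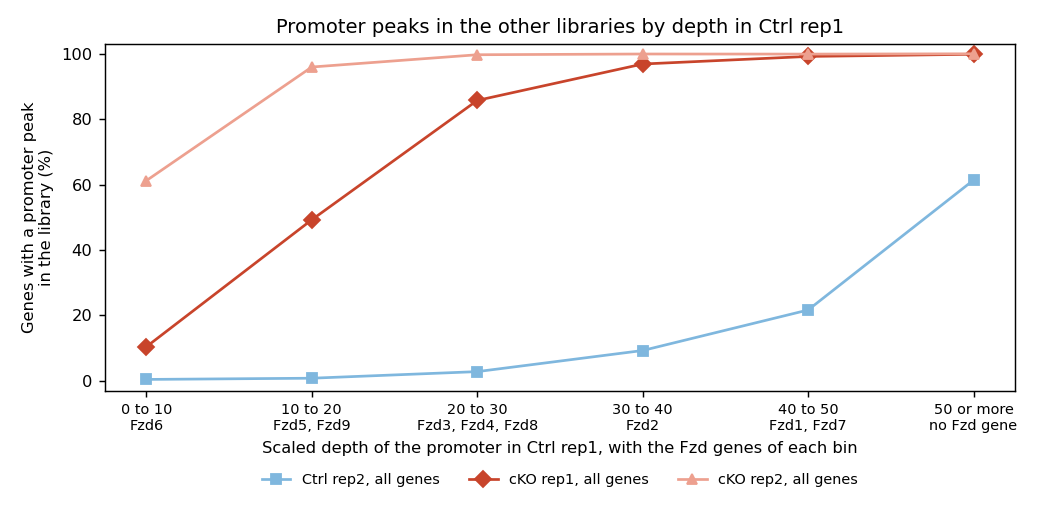
Share of protein-coding genes that had a promoter peak in each of the other 3 libraries (vertical axis, %), by scaled depth of the promoter in Ctrl rep1 (horizontal axis, bins, with the Fzd genes of each). The share for cKO rep1 climbs from 10.4% in the bin of Fzd6 to 99.2% in that of Fzd1 and Fzd7, and the share for Ctrl rep2 stays at 21.7% or less up to there.

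Peaks away from their own promoters were counted at the Frizzled genes. Over the gene bodies and 50 kb on either side there were 20 in Ctrl rep1, 1 in Ctrl rep2, 10 in cKO rep1 and 22 in cKO rep2. The mean per Frizzled gene was 2, 0.1, 1 and 2.2, against 3.18, 0.443, 1.53 and 3.06 per protein-coding gene, and the medians were equal in Ctrl rep2 (0) and cKO rep1 (1). These windows include the gene body, and the median length was 5.25 kb for Frizzled genes and 17.4 kb for protein-coding genes. In the flanks alone, which are equally long for every gene, the means were 2, 0.1, 0.9 and 2.1, against 2.44, 0.359, 1.26 and 2.36. The difference between group means was 5.5 peaks, and −4 without Ctrl rep2. Of these 53 peaks, 24 lay at promoters of other genes and 2 in the body of a Frizzled gene. The exonic peak of Fzd8 in cKO rep1 overlaps a promoter peak of Fzd8 in other lists. The remaining 52 peaks formed 29 regions, of which 16 had a peak in at least 2 lists and 7 in at least 3. Fzd1 had no such peak at all, so its promoter and its coding exon held every peak of that locus. Fzd3 and Fzd9 had the most, 11 each.

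Of the 7 regions with a peak in at least 3 lists, 6 lay at promoters of neighbours: Gpatch8 near Fzd2, Fbxo16 and Extl3 near Fzd3, Ccnyl1 near Fzd5, and Gm973 and 1700122D07Rik near Fzd7. All 6 had peaks in Ctrl rep1 and both cKO lists and none in Ctrl rep2. The Ccnyl1 promoter, 47.0 kb downstream of the Fzd5 TSS, was far deeper than that of Fzd5, with scaled depths of 72.7, 28.9 and 63.7 in Ctrl rep1, cKO rep1 and cKO rep2. Near Fzd10, a region 24.5 to 24.7 kb upstream had peaks in Ctrl rep1 (11 fragments) and cKO rep1 (15 fragments), and another, 42.4 kb upstream, in cKO rep2 (11 fragments). The Fzd9 locus had a region 7.46 kb upstream with peaks in Ctrl rep1 (23 fragments) and cKO rep2 (17 fragments), and one in an intron of Baz1b, 8.24 kb downstream, in the same libraries (13 and 11 fragments). A further region, 20.6 to 20.7 kb upstream, again had peaks in Ctrl rep1 (23 fragments) and cKO rep2 (28 fragments).

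**Figure D5:**
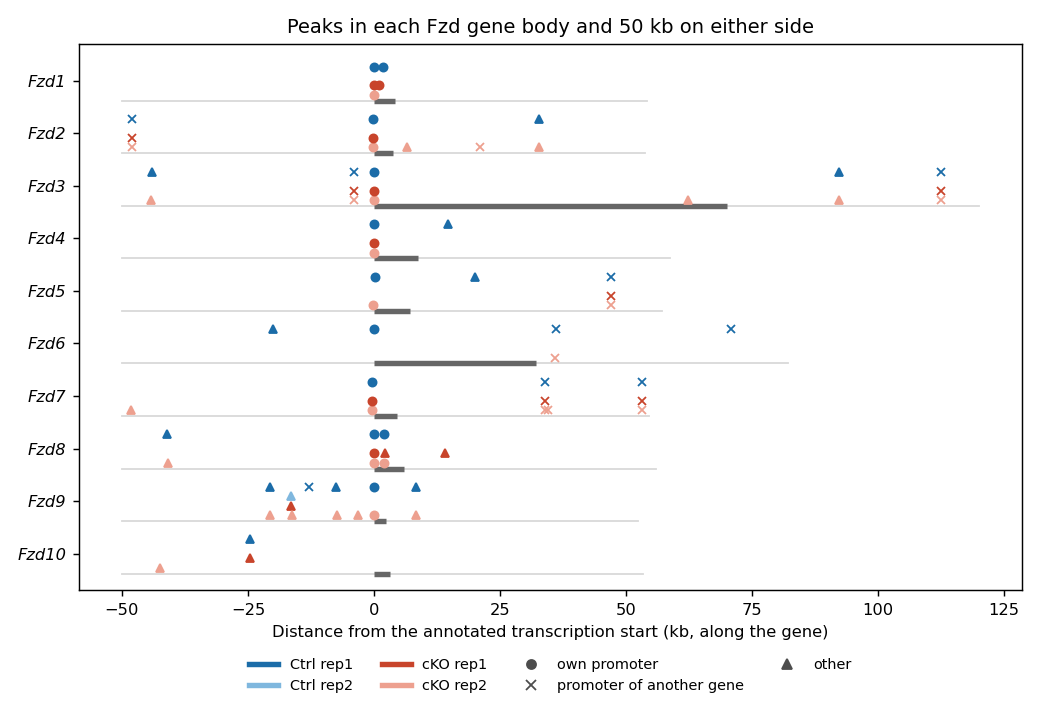
Peaks in each Fzd gene body and 50 kb on either side by distance from the start (horizontal axis, kb along the gene), coloured by library, with circles for the gene's own promoter, crosses for promoters of other genes and triangles for the rest. The only point of Ctrl rep2 lies upstream of Fzd9, and Fzd1 has none outside its promoter.

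The remaining region, 16.4 kb upstream of Fzd9 and 2546 bases from the nearest gene (9430007M09Rik), was the reverse of the Frizzled promoters. It held the only peak of Ctrl rep2 at any Frizzled locus, on 35 fragments and ranked 1449 among the 7037 of that list, and it had no peak in Ctrl rep1. cKO rep1 had 19 fragments there and cKO rep2 had 11, and scaled depth was 10.1, 9.16 and 6.09 in these 3 libraries. The peaks lie within chr5:135267316-135267791, and their common part is printed from the plus strand of GRCm38 because its sequence differs so much from that of the promoters.
Region upstream of Fzd9, chr5:135267368-135267637: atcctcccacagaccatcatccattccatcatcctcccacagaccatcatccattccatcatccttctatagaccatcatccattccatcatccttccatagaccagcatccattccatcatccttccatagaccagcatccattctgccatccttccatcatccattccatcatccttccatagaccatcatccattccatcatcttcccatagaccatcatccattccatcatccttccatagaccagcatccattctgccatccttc
These 270 bases hold no CpG and are 46.3% GC, and 85% of bases equal the base 30 positions further on. Only the summit of cKO rep2 lies in them, and those of Ctrl rep2 and cKO rep1 lie in the 154 bases that follow, where 97.6% of bases equal the base 30 positions further on. Over all 476 bases of the region the share was 86.8%, so the region reads as a tandem repeat with a 30-base unit. None of it is soft-masked in the reference, so the share of repeat-masked peaks does not count it. The part of repeat content in the peaks of Ctrl rep2 at this site was not tested beyond these values.

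The other genes of the Wnt receptor layer gave a background of known partners, 30 genes in all, of which 26, 1, 15 and 23 had a promoter peak in Ctrl rep1, Ctrl rep2, cKO rep1 and cKO rep2. Co-receptors had 5, 1, 3 and 5 of 6. Ptk7, a co-receptor in planar cell polarity, was the only gene of the layer with a peak in all 4 lists (8.02% of genes have one). Its percentiles were 53.6, 92.6, 59.8 and 51.8. The values in Ctrl rep2 and cKO rep1 are close to the lowest that a peak can have there, 91.7 and 59.7. Genes of Frizzled turnover (the ligases Rnf43 and Znrf3 that remove Frizzled from the membrane, with the Lgr receptors and R-spondins that oppose them) had 6, 0, 4 and 5 of 9. The 3 Dishevelled genes had 3, 0, 3 and 3. The partners of Fzd4 in Norrin and Gpr124 complexes had 4, 0, 1 and 3 of 4, and the planar cell polarity partners of Fzd3 and Fzd6 had 7, 0, 4 and 6 of 7. Smo, the other receptor of the Frizzled class, which serves Hedgehog signalling, had a peak in Ctrl rep1 and cKO rep2 only. Both cKO percentiles exceeded both Ctrl percentiles for 5 of these genes (Znrf3, Rspo2, Dvl3, Celsr3 and Prickle1), and 5 of the 26 with a peak in any list is close to the 20.5% of all genes. None had both below, but for all except Ptk7 this was fixed in advance, since they stood at 0 in Ctrl rep2. Against Ctrl rep1 alone the same 5 were higher (23.8% of genes were) and 7 were lower (36.6% of genes were). For Rspo2, Dvl3 and Prickle1 the value in Ctrl rep1 was below 59.7, so the higher value in cKO rep1 followed from list length, as for Fzd8. The median difference over the 26 genes with a peak in any list was 28.7 points, and −3.10 without Ctrl rep2, so it changed sign as it did for the Frizzled genes and for all genes.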

How the data were processed

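ATAC-seq peaks of 4 libraries (2 Ctrl, 2 cKO; groups and replicate numbers from the titles) were analysed as deposited. The authors' steps, from their methods, were trimming (Cutadapt), alignment to mm10 (Bowtie2), removal of blacklist regions, mitochondrial reads and duplicates, the Tn5 shift (alignmentSieve) and peak calling by MACS2 2.2.7.1. 1 list was deposited for each library, and the methods name neither a control library nor pooling. These removals can reduce the fragments behind a peak, which was not measured. The deposited score, meant for display, was left unused. The fold enrichment (a ratio of depth to local background), the −log10 p-value and the −log10 q-value were made by the authors' run of MACS2 and served for ranks and filters within a list.

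Positions are 1-based in mm10 (GRCm38), with the basic set of GENCODE M21. Both the fold (depths with 1 added) and the Poisson p of a MACS2 peak depend on its fragment count, so the fragments at a summit were solved from the pair. A whole number fitted within 0.01 of −log10 p for 99.4 to 99.9% of peaks and for all Frizzled peaks. The genome mean is the lowest local background of a list. Fragment totals were estimated from the lists. Groups were compared by an exact two-sided permutation test over 6 assignments, adjusted by Benjamini-Hochberg over 13196 genes, in Python 3.11.15 (scipy 1.17.1). Counts and means over the 10 genes have no test. The functions were tested on simulated data. Alternatives were the promoter width, overlap rule, flank, q threshold, list size, repeat-masked peaks (at least 50% soft-masked), ranking and leaving out a library.

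All 10 Frizzled genes are named, with other receptor-layer genes by list and, with values, those sharing a locus or with peaks in all 4 lists or in both libraries of 1 group only. Away from promoters, regions with a peak in at least 3 lists are named. Genes and regions outside these rules were chosen after their values were seen. The genes and lists were chosen with earlier results of these data known.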

Additional observations from a re-analysis of the deposited data

How the results depend on the processing

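The sign of the group differences depended on Ctrl rep2. Leaving out each library in turn, the difference in Frizzled genes with a promoter peak ran from −2 to 7, that in mean percentile from −7.53 to 51.3 and that in peaks away from promoters from −4 to 15, each lowest without Ctrl rep2. For peaks away from promoters it was also below 0 without cKO rep2 (−0.5). For single genes the range was 9.08 to 90.2 at Fzd1, 5.15 to 78.2 at Fzd4 and 5.51 to 63.6 at Fzd8, from −1.57 to 81.8 at Fzd2, from 0.631 to 66.8 at Fzd3, from −2.32 to 82.8 at Fzd7, from −24.6 to 23.0 at Fzd5, from −44.0 to 0 at Fzd6 and from −24.7 to 27.6 at Fzd9. The other settings kept the direction of the counts and of the mean percentile, which ran from 6.07 (mid-ranks for genes without a peak) to 22.2. Mid-ranks turned Fzd9 from 1.46 to −6.53 and put both cKO values of Fzd6 (29.9 and 22.1) below both Ctrl values (44.0 and 45.9). Of these Fzd6 values only 44.0, in Ctrl rep1, rests on a peak. The others are the mid-ranks of any gene without a peak, Fzd10 included, and are set by how many genes have a peak in that list. Ranked by fold enrichment, Fzd3 too had both cKO values (65.0 and 67.8) above both Ctrl values (61.0 and 0). The share of all genes for which this held was not counted, so it has no background. By −log10 p the cKO values of Fzd3 lay on either side of Ctrl rep1. In lists of equal size (7037 peaks), 3, 0, 3 and 4 Frizzled genes kept a promoter peak (26.1, 8.27, 21.0 and 23.2% of protein-coding genes did), Fzd1, Fzd2 and Fzd7 in 3 lists each, and peaks away from promoters numbered 3, 1, 4 and 3. At a −log10 q of at least 5, Fzd3 had no peak in cKO rep1 and its difference was 1.63, Fzd5 had none in cKO rep2 (−23.8, from −0.757) and Fzd6 had none at all (0, from −22.0). Ranks over the 8734 genes with a promoter peak in Ctrl rep1 and both cKO lists were an alternative chosen after seeing the data. They leave out Ctrl rep2, and also Fzd5, Fzd6, Fzd9 and Fzd10, which had no peak in cKO rep1. The mean difference over the 6 Frizzled genes left was 4.55, where the percentiles of all 10 genes without Ctrl rep2 gave −7.53. By gene it was 22.3 at Fzd1, 11.0 at Fzd4, 5.63 at Fzd8, −3.95 at Fzd2, −2.07 at Fzd3 and −5.66 at Fzd7. The labels do not say whether replicate numbers pair the libraries. The correlation of same-numbered deviations was 0.0530 over 13196 genes. It cannot decide this, since most genes stood at 0 in Ctrl rep2 for want of a peak. With the replicate block the differences are 2.5 genes, 21.9 points and 5.5 peaks as without it, and the sign-flip p cannot fall below 0.5. Of the 9 Frizzled genes with a promoter peak, 5 were higher in both pairs (32.2% of the 13196 genes were). All stood at 0 in Ctrl rep2, so the second pair was fixed in advance for any gene with a peak in cKO rep2. The 5 are thus those higher in cKO rep1 than in Ctrl rep1 (Fzd1, Fzd2, Fzd4, Fzd7 and Fzd8). For Fzd8 that followed from list length. Depth limits what can be said of promoter peaks on few fragments, such as those of Fzd5, Fzd6 and Fzd9 (10 to 21) and that of Fzd3 in cKO rep1 (13).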
